A study of Mus musculus with 30 samples.

Results

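FoxK1 KD and FoxK2 KD hepatocytes were compared with each other in the basal state, to ask which transcripts tell the loss of one factor from the loss of the other. The comparison used 8 of the 30 RNA libraries of the study, 4 of FoxK1 KD and 4 of FoxK2 KD, chosen by their labels, and 11368 of the 49089 genes in the files had enough reads to be tested. All libraries came from AML12, a mouse hepatocyte cell line, in which one factor was lowered by transient transfection of small interfering RNA. The cells had been starved of serum overnight and then received no insulin. The labels give these libraries a time of 0, whereas the study's methods describe mock treatment in parallel with insulin. Libraries of Control cells with a non-targeting siRNA, of cells with both factors lowered (DKD), and of the same knockdowns after 100 nM insulin for 6 h were used beside them. The knockdown is partial, is from siRNA in 1 cell line, and siRNA against only one factor leaves the other in place.

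FoxK1 and FoxK2 are closely related forkhead transcription factors that bind DNA motifs much like those of the FoxO factors. FoxO proteins leave the nucleus when insulin activates AKT, whereas FoxK proteins have been described to enter it. FoxK proteins recruit SIN3 and other corepressor complexes, and have been tied to autophagy, glycolysis, cell cycle and lipid genes.

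The 8 libraries held 3070960 to 4668774 counts each. Values are given below as CPM, the reads of a gene per 1000000 reads of its library, and differences as the log2 of FoxK1 KD over FoxK2 KD, so that a positive value means higher in FoxK1 KD. The error after ± is the standard error of a log2 difference, and a gene is said to have passed, risen or fallen where its adjusted p in edgeR was under 0.05. The first principal component of the 8 libraries took 28.4% of their variance and placed all 4 FoxK1 KD libraries on one side and all 4 FoxK2 KD libraries on the other. Of 10 hepatocyte markers 9 were measured above the filter, led by Apob at 481 to 819 CPM, while Alb was low, at 2.97 to 65.2 CPM, and Apoa1 ranged from 0 to 2.82 CPM. Bile duct markers were also present in the line, with Spp1 at 790.0 to 1505 CPM and Epcam at 0 in all 8 libraries. The summed level of the 7 bile duct markers was 1487 to 1890 CPM in FoxK1 KD and 2131 to 2386 CPM in FoxK2 KD, and its part in the results below was not tested. The stellate cell and endothelial markers stayed near 0. Of the 6 macrophage markers, Adgre1 was at 0 in all 8 libraries and Clec4f and Lyz2 stayed under 1 CPM. Cd68 ranged from 0.216 to 1.34 CPM, Ptprc from 0.471 to 2.78 CPM, and Csf1r from 7.72 to 21.4 CPM. Csf1r was the 1 macrophage marker above the filter, and it was higher in FoxK1 KD. Control replicate 1, which shares the model with the 8 libraries, stood apart from the other Control libraries, at a chi-square of 15.7 to 22.1 per degree of freedom against each of them beside 2.63 to 4.93 among the others. Fits without it were added after the data were seen and are given beside the counts they change. In bulk RNA, fewer cells of a kind and less RNA per cell cannot be told apart.

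Each target was lower in its own knockdown than in the other. Foxk1 (ENSMUSG00000056493.9, chr5:142401497-142462011 in GRCm38) stood at 38.9, 27.4, 38.8 and 42.01 CPM in the FoxK1 KD libraries and 83.7, 71.5, 66.4 and 58.03 CPM in the FoxK2 KD libraries (log2 difference -0.91 ± 0.12, adjusted p = 1.09e-05). Foxk2 (ENSMUSG00000039275.9, chr11:121259990-121309896) stood at 101, 116, 128 and 124 CPM in the FoxK1 KD libraries and 46.3, 49.4, 50.6 and 42.9 CPM in the FoxK2 KD libraries (log2 difference 1.31 ± 0.09, adjusted p = 3.04e-12). The groups did not overlap for either gene, so the labels and the targets went together in all 8 libraries. Beside Control at 81.4 ± 10.4 CPM (SD, n = 4), Foxk1 differed by -1.14 ± 0.12 (adjusted p = 6.19e-08) in FoxK1 KD and by -0.23 ± 0.11 (adjusted p = 0.441) in FoxK2 KD. Beside Control at 140.2 ± 8.25 CPM, Foxk2 differed by -1.57 ± 0.09 (adjusted p = 8.3e-15) in FoxK2 KD and by -0.26 ± 0.08 (adjusted p = 0.0487) in FoxK1 KD, which was not called without Control replicate 1 (adjusted p = 0.148). The FoxK2 KD libraries thus held about as little Foxk2 as the DKD libraries, at 50.2 ± 5.69 CPM. Of 23 tested FoxK factors and partners, among them the SIN3 and Polycomb deubiquitinase subunits, no other passed (2 others without Control replicate 1).

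**Figure D1:**
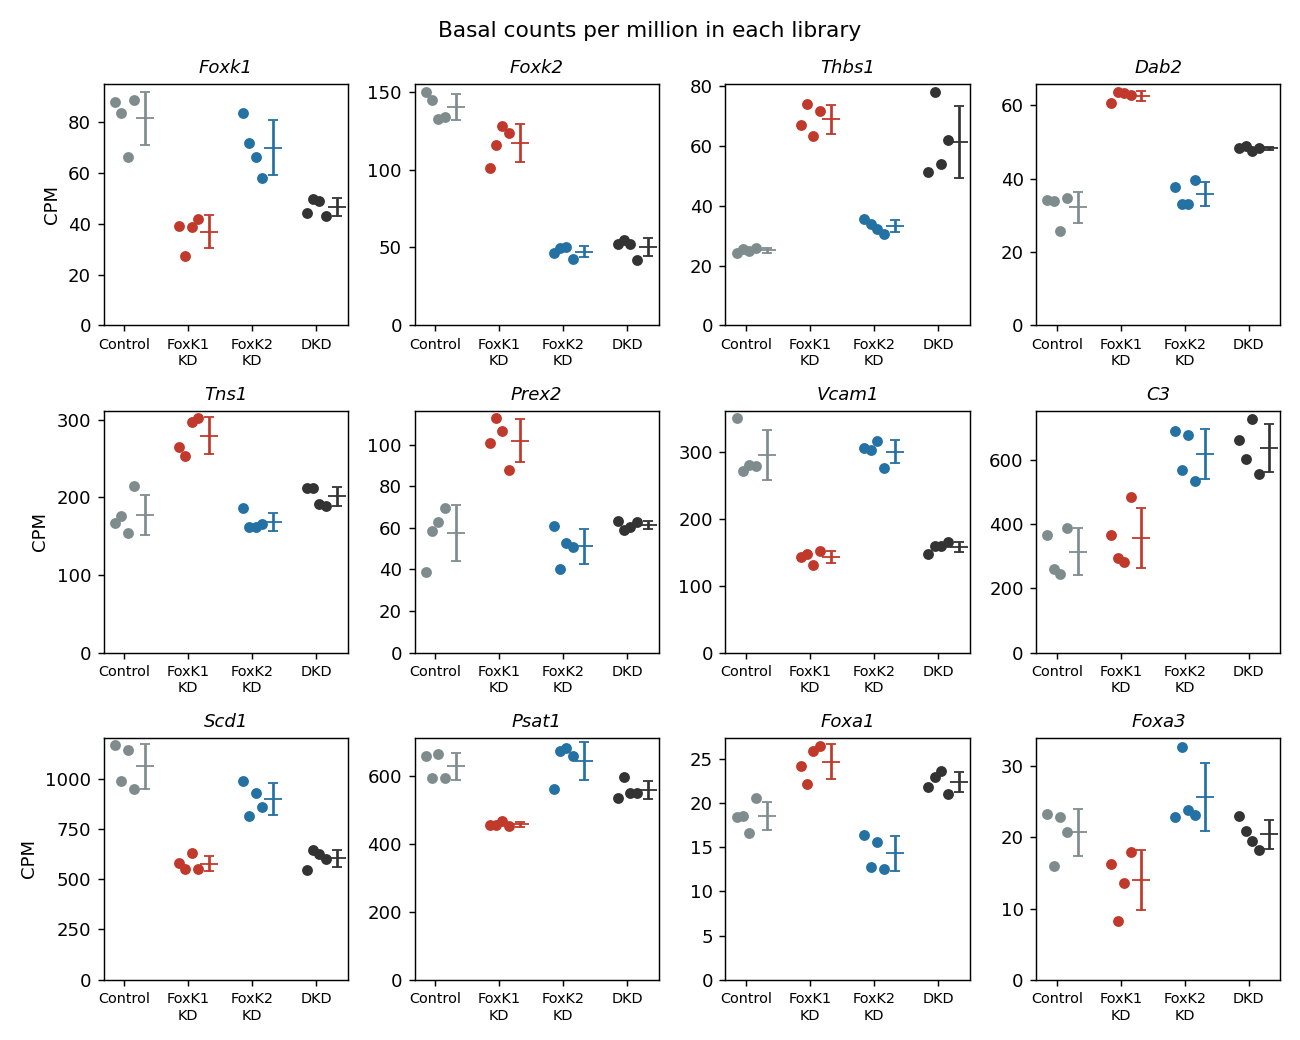
CPM (vertical axis, linear from 0) of 12 genes in each basal library of Control, FoxK1 KD, FoxK2 KD and DKD. Points are libraries and the bar beside them is the mean ± SD of 4 libraries. Vcam1 sits at 132 to 152 CPM in FoxK1 KD and 276 to 317 CPM in FoxK2 KD, and Thbs1 at 63.3 to 74.3 CPM against 30.8 to 35.5 CPM.

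Of the 11368 genes, 242 (2.13%) were higher and 215 (1.89%) were lower in FoxK1 KD than in FoxK2 KD, 457 (4.02%) in all. Most of the differences were small, with a median fold of 1.35 among the higher and 1.36 among the lower genes. A fold above 1.5 was reached by 72 (0.633%) higher and 49 (0.431%) lower genes, and a fold above 2 by 14 and 10. The 4 FoxK1 KD libraries and the 4 FoxK2 KD libraries did not overlap for 399 of the 457 genes, against 11.9% of all genes tested. The 457 were called on these same libraries, so the share describes them and is not separate evidence. Protein-coding genes made up 436 of the 457. The count depended on single libraries: it was 124 higher and 104 lower without FoxK2 KD replicate 2, 109 and 86 without FoxK2 KD replicate 3, 139 and 98 without FoxK2 KD replicate 4, and 151 and 131 without FoxK1 KD replicate 3. Without Control replicate 1 it was 391 higher and 391 lower, and all 90 named genes that passed still did. The lower genes numbered 130 without FoxK1 KD replicate 2 and 132 without FoxK1 KD replicate 4.

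Matrix and adhesion genes were among those higher in FoxK1 KD, where 2.13% of all genes were called higher. Among 30 tested extracellular matrix genes 4 rose and 1 fell, and among 29 integrin and cell junction genes 5 rose and 1 fell, with median log2 differences of 0.10 and 0.07 beside -0.01 over all genes tested. Thbs1 (ENSMUSG00000040152.8, chr2:118111876-118127133), which encodes the matrix glycoprotein thrombospondin-1, was at 66.98, 74.3, 63.3 and 71.7 CPM in the FoxK1 KD libraries and 35.5, 33.9, 32.4 and 30.8 CPM in the FoxK2 KD libraries (log2 difference 1.06 ± 0.11, adjusted p = 1.25e-07). Every FoxK1 KD library held more Thbs1 than every FoxK2 KD library. Col12a1, a fibril-associated collagen, ranged from 41.9 to 50.3 CPM in FoxK1 KD and 22.6 to 33.3 CPM in FoxK2 KD (log2 difference 0.68 ± 0.15, adjusted p = 0.00738), and Lamb3, a laminin chain of epithelial basement membranes, from 86.4 to 98.7 CPM in FoxK1 KD and 66.1 to 75.3 CPM in FoxK2 KD (log2 difference 0.45 ± 0.08, adjusted p = 0.000737). Sparc, a collagen-binding matricellular protein, was moderately higher, at 0.30 ± 0.07 on the log2 scale. The member that fell was Spp1, osteopontin, at -0.50.

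Mcam, the adhesion molecule CD146, was sparse but separate, at 6.11, 4.95, 7.999 and 5.62 CPM in the FoxK1 KD libraries and 2.47, 2.59, 1.73 and 3.08 CPM in the FoxK2 KD libraries (log2 difference 1.33 ± 0.27, adjusted p = 0.00253). Adgrg1, an adhesion G-protein-coupled receptor, ranged from 95.7 to 110.4 CPM in FoxK1 KD and 72.3 to 83.7 CPM in FoxK2 KD (log2 difference 0.42 ± 0.08, adjusted p = 0.00187). The desmosome plaque protein gene Dsp (0.45 ± 0.10 (adjusted p = 0.00465)) and the N-cadherin gene Cdh2 (0.37 ± 0.08 (adjusted p = 0.00382)) were also higher, as was Cdh6 at 0.42, whereas the E-cadherin gene Cdh1 was lower at -0.33. Sned1, an extracellular matrix protein with epidermal growth factor-like repeats, had the greatest log2 difference among the protein-coding genes above the abundance minimum whose groups did not overlap, at 4.75, 5.94, 6.35 and 5.35 CPM in the FoxK1 KD libraries and 2.16, 2.12, 2.38 and 1.98 CPM in the FoxK2 KD libraries (log2 difference 1.36 ± 0.27, adjusted p = 0.00211).

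After Foxk2 and Thbs1, the smallest p values in this direction were those of Tns1, Prex2 and Ccn4. Tns1, tensin-1, which links integrins to actin, was at 265, 254, 298 and 303 CPM in the FoxK1 KD libraries and 186, 162, 162 and 165 CPM in the FoxK2 KD libraries (log2 difference 0.73 ± 0.09, adjusted p = 2.53e-06). Dab2 (chr15), a clathrin adaptor of endocytosis, was at 60.6, 63.7, 63.3 and 62.9 CPM in the FoxK1 KD libraries and 37.7, 33.2, 33.1 and 39.6 CPM in the FoxK2 KD libraries (log2 difference 0.80 ± 0.11, adjusted p = 2.46e-05). The 4 FoxK1 KD libraries lay within a narrow band for Dab2 and clear of every FoxK2 KD library. Prex2, a guanine nucleotide exchange factor for Rac, was at 101, 113, 106 and 88.03 CPM in the FoxK1 KD libraries and 60.8, 40.01, 52.7 and 50.6 CPM in the FoxK2 KD libraries (log2 difference 1.003 ± 0.12, adjusted p = 2.53e-06). Cttnbp2, a cortactin-binding protein (0.71 ± 0.10 (adjusted p = 2.17e-05)), Setd7, a lysine methyltransferase (0.64 ± 0.09 (adjusted p = 1.94e-05)), and Ccn4, a secreted matricellular Wnt target (0.66 ± 0.09 (adjusted p = 1.71e-05)), were higher without overlap between the groups. Entpd5, a nucleotide phosphatase of the endoplasmic reticulum, was higher by 0.87 ± 0.13 (adjusted p = 5.62e-05).

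Shroom3, a regulator of apical actin, was higher by 0.98 ± 0.21 (adjusted p = 0.00557). The dynamin gene Dnm3 differed by 0.88 ± 0.21 (adjusted p = 0.0117), the phospholipase C-like gene Plcl1 by 1.002 ± 0.26 (adjusted p = 0.0208), the TEAD cofactor gene Vgll3 by 1.02 ± 0.26 (adjusted p = 0.022), and the histone gene Hist1h2bc, whose reads may be shared with near-identical histone copies, by 0.91 ± 0.18 (adjusted p = 0.00292). Dnm3 lost its call without FoxK2 KD replicate 4, Plcl1 without FoxK1 KD replicate 3 or FoxK2 KD replicates 1 or 3, and Vgll3 without FoxK1 KD replicate 3 or FoxK2 KD replicates 2 or 3. Below the abundance minimum for naming, 1 further protein-coding gene stood out and was picked after its values were seen: Siglecg, a sialic acid-binding lectin of immune cells, had 93 reads over the 4 FoxK1 KD libraries and 23 over the 4 FoxK2 KD libraries. The other genes with a fold above 2 in this direction included the repeat-rich model Gm10800, mt-Co2 and the unprocessed pseudogenes Gm10925, Gm28661 and Gm28437, whose reads may be split with near-identical copies and are uncertain.

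Signalling genes passed in small numbers and in both directions, where 2.13% of all genes tested were higher and 1.89% lower. Of 29 tested Wnt and Hippo genes 2 rose and 1 fell, and of 30 TGF-beta and BMP genes 2 rose and 3 fell. The ligand gene Wnt7a was at 9.05, 12.9, 14.6 and 9.10 CPM in the FoxK1 KD libraries and 6.79, 5.18, 4.11 and 5.93 CPM in the FoxK2 KD libraries (log2 difference 1.06 ± 0.25, adjusted p = 0.0115), and its relative Wnt7b differed by 0.54 ± 0.15 (adjusted p = 0.03), while Tcf7, a nuclear effector of Wnt, was lower by -0.72 ± 0.18 (adjusted p = 0.0146). Wnt7a lost its call without FoxK1 KD replicate 3 or FoxK2 KD replicate 3, and Wnt7b kept its call in only 1 of 8 fits that left out 1 library. Without Control replicate 1 the count of Wnt and Hippo genes that rose was 5. Among 30 genes of the TGF-beta and BMP pathway, the inhibitor Smad7 rose from 47.2 ± 3.79 CPM in FoxK2 KD to 72.5 ± 4.13 CPM in FoxK1 KD (SD, n = 4, log2 difference 0.62 ± 0.11, adjusted p = 0.0008). The latent TGF-beta binding protein gene Ltbp1 was higher at 0.34, and the receptor Tgfbr2 (-0.31 ± 0.08 (adjusted p = 0.0202)), the ligand Tgfb1 (-0.43 ± 0.13 (adjusted p = 0.0488)) and the BMP target Id1 (-0.76 ± 0.22 (adjusted p = 0.0442)) were lower. Of these lower calls, Tgfbr2 was lost without FoxK1 KD replicate 3 or FoxK2 KD replicates 3 or 4, while Tgfb1 and Id1 held in only 2 of 8 and 2 of 8 such fits.

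Among the lists with at least 15 tested members, that of inflammatory genes had the highest share of members called lower in FoxK1 KD. Of 26 tested chemokine, NF-kB feedback and adhesion genes 13 were lower and none was higher, with a median log2 difference of -0.41 beside -0.01 over all genes. The background of lower calls was 1.89%. The libraries did not overlap for 16 of the 26, all of them lower in FoxK1 KD, against 6.24% of all genes tested. At the study's own threshold of an adjusted p under 0.25 the list held 19 lower members and none higher, where 8.54% of all genes were lower and 7.96% higher (16.5% in all).

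Vcam1 (ENSMUSG00000027962.14, chr3:116109949-116129688), the adhesion molecule that binds leukocyte integrins, was at 143, 148, 132 and 152 CPM in the FoxK1 KD libraries and 307, 304, 317 and 276 CPM in the FoxK2 KD libraries (log2 difference -1.07 ± 0.08, adjusted p = 9.73e-12). The groups were far apart, with the highest FoxK1 KD library well below the lowest FoxK2 KD library. C3, the central complement component, was at 365, 295, 282 and 483 CPM in the FoxK1 KD libraries and 688, 568, 678 and 535 CPM in the FoxK2 KD libraries (log2 difference -0.79 ± 0.15, adjusted p = 0.00174). The bacterial lipopeptide receptor Tlr2 was at 19.01, 16.2, 17.9 and 19.00 CPM in the FoxK1 KD libraries and 28.4, 25.4, 31.3 and 29.9 CPM in the FoxK2 KD libraries (log2 difference -0.67 ± 0.13, adjusted p = 0.00226). For C3 the FoxK1 KD libraries spread more widely than for Tlr2, and for neither did the groups overlap. Cd14, the lipopolysaccharide coreceptor, ranged from 59.7 to 77.2 CPM in FoxK1 KD and 93.8 to 119 CPM in FoxK2 KD (log2 difference -0.64 ± 0.11, adjusted p = 0.000443). Tnfaip2, a gene first found through its induction by tumour necrosis factor, ranged from 3.48 to 3.85 CPM in FoxK1 KD and 7.10 to 9.41 CPM in FoxK2 KD (log2 difference -1.16 ± 0.24, adjusted p = 0.00311).

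The interferon-inducible chemokine Cxcl10 was at 4.98, 7.59, 3.999 and 4.01 CPM in the FoxK1 KD libraries and 8.64, 8.24, 9.94 and 9.67 CPM in the FoxK2 KD libraries (log2 difference -0.86 ± 0.21, adjusted p = 0.0129), and the siderophore-binding acute phase protein Lcn2 at 25.6, 12.9, 24.2 and 29.97 CPM in the FoxK1 KD libraries and 38.6, 50.1, 42.4 and 39.1 CPM in the FoxK2 KD libraries (log2 difference -0.86 ± 0.22, adjusted p = 0.0186). For Cxcl10 the highest FoxK1 KD library came close to the lowest FoxK2 KD library, and for neither gene did the groups overlap. The other members that passed were Relb and Nfkb2, which encode subunits of the non-canonical NF-kB pathway, the inhibitor Nfkbia, and the chemokines Ccl20, Cxcl1 and Cxcl5, with log2 differences from -0.55 for Relb to -0.37 for Nfkbia. Among members that did not pass, Nfkb1, Tnfaip3, Ccl7 and Csf1 had log2 differences between -0.02 and 0.09. The count of 13 was 17 without Control replicate 1, and fell to 8 without FoxK2 KD replicate 2 and to 7 without FoxK2 KD replicate 3. Cxcl10 lost its call without FoxK1 KD replicates 3 or 4 or FoxK2 KD replicate 3, and Lcn2 without FoxK1 KD replicate 2 or FoxK2 KD replicates 2 or 3. Il33, an alarmin cytokine outside the list, was lower too, at 60.6, 49.5, 61.6 and 62.3 CPM in the FoxK1 KD libraries and 98.5, 100.0, 86.5 and 96.9 CPM in the FoxK2 KD libraries (log2 difference -0.70 ± 0.10, adjusted p = 5.2e-05).

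RefSeq promoter windows from 250 bases before to 50 after the annotated start (GRCm38.p6) were matched by symbol for 8740 of the 11368 genes. The kappaB consensus, to which NF-kB dimers bind, was sought on both strands and was present in 10.2% of the 11213 windows of tested genes, in 16.8% of windows of genes lower in FoxK1 KD, and in 10.04% of windows of genes higher in FoxK1 KD. In the inflammatory list 9 of the 13 lower genes had a window, and 7 of these 9 held the consensus. The list was drawn up from genes known to respond to NF-kB, so the share is a description of its members. The window of Tlr2 (chr3:83841559-83841858, minus strand) is shown as that of the list member with the smallest p whose window holds the consensus. Capitals mark its matches, of which the first pair overlap and begin 173 and 172 bases before the start.
Tlr2: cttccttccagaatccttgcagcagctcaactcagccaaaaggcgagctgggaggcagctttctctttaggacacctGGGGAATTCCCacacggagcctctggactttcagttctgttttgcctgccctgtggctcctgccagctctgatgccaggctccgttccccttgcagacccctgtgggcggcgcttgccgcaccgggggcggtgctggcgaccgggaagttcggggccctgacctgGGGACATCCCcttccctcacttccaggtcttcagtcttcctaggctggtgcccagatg

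The cholesterol genes that passed were all lower in FoxK1 KD. Of 27 tested genes of cholesterol synthesis and LDL uptake 8 were lower and none was higher (background 1.89%), and 25 of the 27 had a negative log2 difference, where 51.1% of all genes did. The median was -0.19. The synthesis enzymes Mvd (-0.45 ± 0.09 (adjusted p = 0.00359)), Dhcr7 (-0.31 ± 0.07 (adjusted p = 0.007)) and Acat2 (-0.42 ± 0.11 (adjusted p = 0.0171)) were lower, and Pmvk, Tm7sf2, Lss and Nsdhl passed as well at -0.57 to -0.26. The count of 8 came down to 3 without FoxK2 KD replicate 3, 4 without FoxK1 KD replicate 1 or 4, and 5 without FoxK1 KD replicate 2 or FoxK2 KD replicate 2 or 4. With only the 16 basal libraries in the model it was 4.

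In fatty acid synthesis and desaturation 1 of 24 tested genes passed (2 without Control replicate 1). Scd1, the stearoyl-CoA desaturase of liver, was at 582, 549, 629 and 549 CPM in the FoxK1 KD libraries and 990.0, 814, 929 and 859 CPM in the FoxK2 KD libraries (log2 difference -0.64 ± 0.08, adjusted p = 2.25e-06), without overlap. Its paralogue Scd2, which was far more abundant, was at 4161, 4068, 4258 and 3889 CPM in the FoxK1 KD libraries and 4415, 3907, 4309.6 and 4055 CPM in the FoxK2 KD libraries and overlapped fully (log2 difference -0.03 ± 0.07, adjusted p = 0.875). Erlin1, an endoplasmic reticulum protein that takes part in sterol regulation, was lower by -0.63 ± 0.10 (adjusted p = 9.82e-05), and Pex5, the import receptor of peroxisomal matrix proteins, by -0.55 ± 0.09 (adjusted p = 0.000102). None of 26 fatty acid oxidation genes passed (1 without Control replicate 1), and 13 had a positive and 13 a negative difference.

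**Figure D2:**
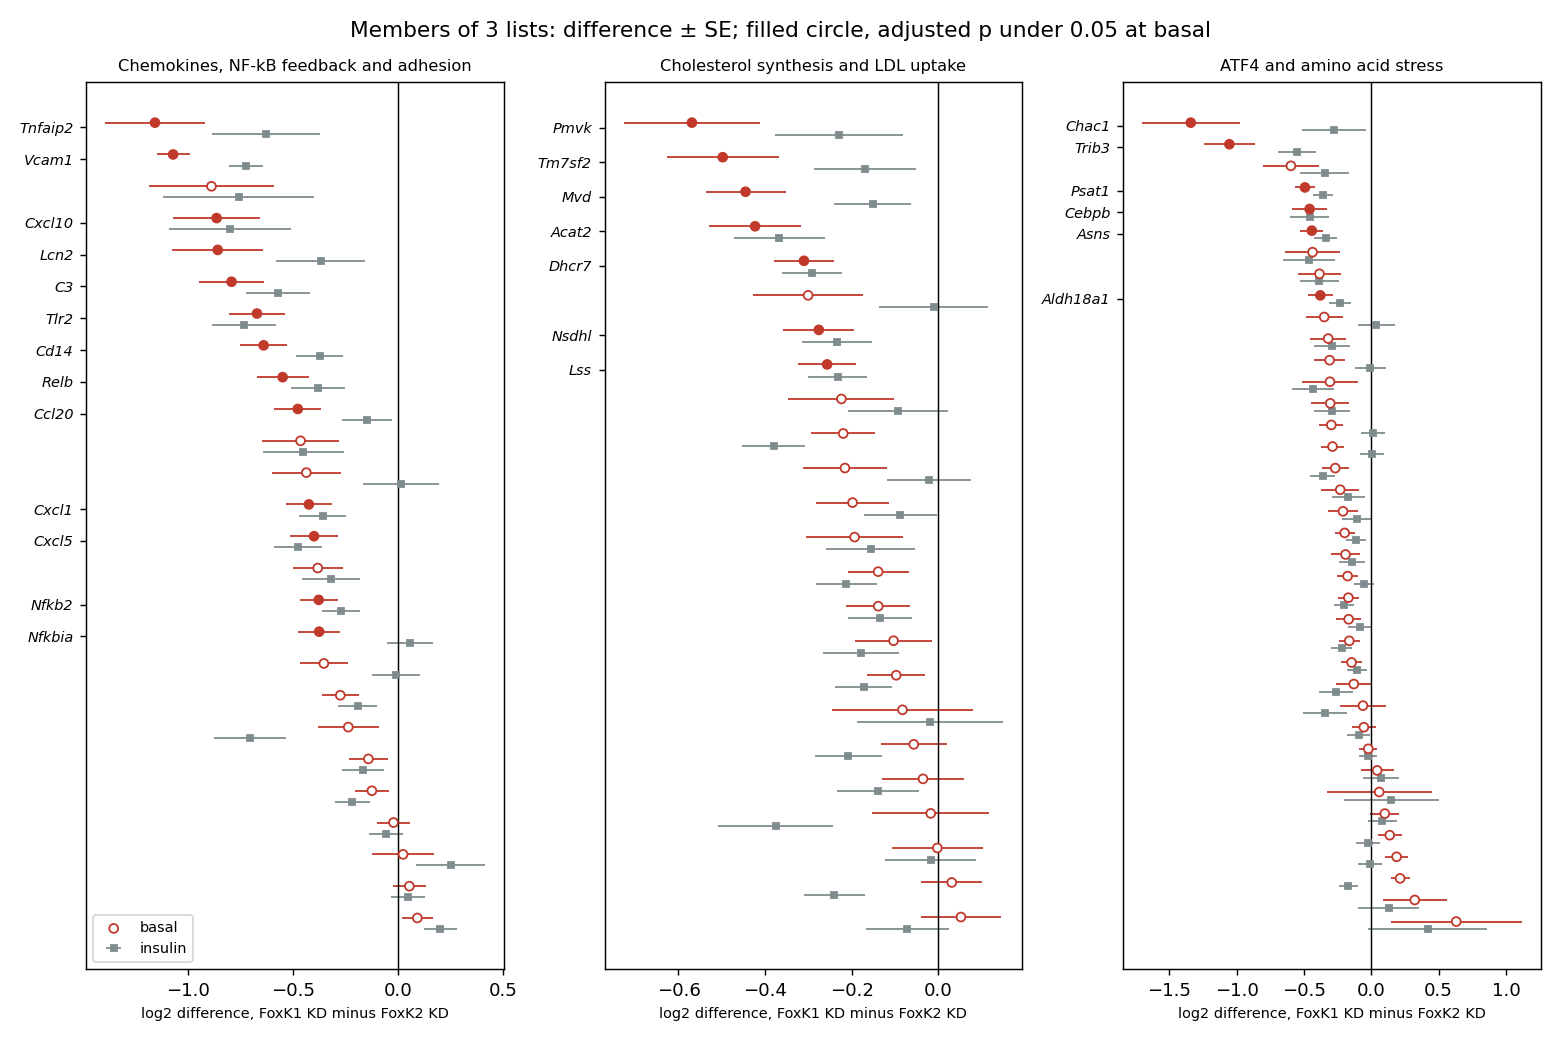
Log2 difference of FoxK1 KD over FoxK2 KD (horizontal axis) with its standard error for tested members of the inflammatory (26), cholesterol (24 of 27) and ATF4 (38) lists, as red circles at basal (filled where the adjusted p was under 0.05) and as grey squares after insulin. Filled circles lie left of 0 in all 3 panels, 13, 7 and 6 of the members drawn, and these are the ones named beside the axis.

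ATF4 is a transcription factor that is translated when amino acids run short and that controls amino acid and stress genes. Of 38 tested members of its list 6 fell (background 1.89%) and none rose, with a median of -0.20, and 30 of the 38 were negative. Psat1, of serine synthesis, was at 457, 457, 469.6 and 453 CPM in the FoxK1 KD libraries and 564, 675, 683 and 661 CPM in the FoxK2 KD libraries (log2 difference -0.49 ± 0.08, adjusted p = 0.000102). Its 4 FoxK1 KD libraries were nearly equal, and all FoxK2 KD libraries were above them. Asns, asparagine synthetase, ranged from 114 to 147 CPM in FoxK1 KD and 177 to 187 CPM in FoxK2 KD (log2 difference -0.44 ± 0.09, adjusted p = 0.00182), and Aldh18a1, of proline synthesis, differed by -0.38 ± 0.09 (adjusted p = 0.0138). Trib3, a pseudokinase that binds AKT and is induced by ATF4, was at 5.43, 7.26, 5.65 and 4.28 CPM in the FoxK1 KD libraries and 11.7, 10.1, 11.9 and 12.7 CPM in the FoxK2 KD libraries (log2 difference -1.05 ± 0.19, adjusted p = 0.000669). Cebpb and Chac1 completed the 6, Chac1 with 23 reads in FoxK1 KD and 64 in FoxK2 KD over 4 libraries each. The count was 3 without FoxK2 KD replicate 3 and also 3 without FoxK2 KD replicate 4, and without Control replicate 1 there were 8 lower and 1 higher. Atf4 itself was at -0.21 and did not pass. In the unfolded protein response list 1 of 24 passed, Herpud1, of endoplasmic reticulum-associated degradation, at -0.43 ± 0.09 (adjusted p = 0.00515), and 3 passed without Control replicate 1.

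The CARE element TGATGNAA, a C/EBP-ATF response element, was present on either strand in 2.11% of windows of tested genes. In the tested ATF4 list it was in 32.4% of windows, those of 12 of 31 genes matched, and 3 of the 6 lower genes held it. The list was drawn up around ATF4, so the share is a description of its members. The window shown is that of Trib3 (chr2:152344011-152344310, minus strand). Capitals mark the CARE match, beginning 14 bases after the start. The sterol response element TCACNCCAC was in 1.22% of tested windows and in 1 of the 25 windows of the tested cholesterol list. It was in none of the 10 windows of the lower cholesterol genes, too few to show a difference from so small a share.
Trib3: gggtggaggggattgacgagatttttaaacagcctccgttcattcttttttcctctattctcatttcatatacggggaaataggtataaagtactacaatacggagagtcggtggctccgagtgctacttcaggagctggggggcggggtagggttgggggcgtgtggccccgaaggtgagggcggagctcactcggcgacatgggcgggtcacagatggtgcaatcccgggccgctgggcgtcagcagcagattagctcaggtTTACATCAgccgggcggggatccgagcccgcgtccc

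Liver transcription factors split, where 2.13% of all genes tested were higher and 1.89% lower. Foxa1, a pioneer forkhead factor of hepatocytes, was higher in FoxK1 KD, at 24.2, 22.1, 25.9 and 26.5 CPM in the FoxK1 KD libraries and 16.4, 12.7, 15.6 and 12.5 CPM in the FoxK2 KD libraries (log2 difference 0.80 ± 0.12, adjusted p = 9.8e-05). Foxa3, of the same family, was lower, at 16.3, 8.25, 13.6 and 17.9 CPM in the FoxK1 KD libraries and 22.8, 32.7, 23.8 and 23.1 CPM in the FoxK2 KD libraries (log2 difference -0.85 ± 0.16, adjusted p = 0.0018). The groups were separate for both, in opposite directions. Of 23 tested hepatocyte factors 2 rose and 2 fell, the others being Onecut2 (0.42 ± 0.10 (adjusted p = 0.0103)) and Cebpb (-0.46 ± 0.13 (adjusted p = 0.0416)), which lost its call in all but 1 of the 8 fits that left out 1 library. Onecut2 lost its call without FoxK2 KD replicate 2. Twist2, a mesenchymal basic helix-loop-helix factor, was lower at 7.06 to 10.6 CPM in FoxK1 KD and 13.3 to 21.8 CPM in FoxK2 KD (log2 difference -1.08 ± 0.29, adjusted p = 0.0254), a call lost without FoxK1 KD replicates 3 or 4 or FoxK2 KD replicates 3 or 4. The immediate early gene Egr1 was lower at 9.17 to 14.7 CPM in FoxK1 KD and 23.5 to 25.3 CPM in FoxK2 KD (log2 difference -0.92 ± 0.18, adjusted p = 0.00171), and Jund by -0.69 ± 0.19 (adjusted p = 0.0298), which held in only 3 of 8 such fits.

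Of 16 tested plasma proteins and apolipoproteins 3 were lower (18.75%, background 1.89%), C3 and the retinol transport pair Ttr and Rbp4. Ttr was at 23.8, 19.8, 12.9 and 20.9 CPM in the FoxK1 KD libraries and 21.6, 38.4, 43.2 and 40.9 CPM in the FoxK2 KD libraries (log2 difference -0.92 ± 0.23, adjusted p = 0.0171), and FoxK2 KD replicate 1 lay among the FoxK1 KD libraries. Rbp4 ranged from 235 to 299 CPM in FoxK1 KD and 289.6 to 406 CPM in FoxK2 KD (log2 difference -0.43 ± 0.11, adjusted p = 0.0176). Ttr lost its call without FoxK1 KD replicate 3 or FoxK2 KD replicates 2, 3 or 4, and Rbp4 without FoxK1 KD replicates 3 or 4 or FoxK2 KD replicates 3 or 4. The count of 3 was 1 without FoxK1 KD replicate 3, FoxK2 KD replicate 3 or FoxK2 KD replicate 4.

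Most replication and mitosis genes had a negative difference. The shares that fell were above that of all genes tested, on small counts that depended on single libraries. Of 46 tested DNA replication genes 3 fell (6.52%, background 1.89%). Of the 46, 41 were negative, where 51.1% of all genes were, with a median of -0.19. The libraries did not overlap for 11 of the 46, all lower in FoxK1 KD, against 6.24% of all genes tested. Uhrf1, which carries DNA methylation through replication, was at 59.3, 63.7, 64.7 and 64.5 CPM in the FoxK1 KD libraries and 74.4, 91.1, 95.5 and 101 CPM in the FoxK2 KD libraries (log2 difference -0.53 ± 0.10, adjusted p = 0.00194). The uracil-DNA glycosylase gene Ung differed by -0.85 ± 0.23 (adjusted p = 0.0252) and the replicative helicase gene Mcm5 by -0.31 ± 0.09 (adjusted p = 0.0309). Without FoxK2 KD replicate 2, 3 or 4 only 1 replication gene passed, without FoxK2 KD replicate 1 there were 5, and without Control replicate 1 there were 8. Of 60 mitosis genes 3 fell (5.0%), Cdk1, Ccnb1 and Kif22, at -0.38 to -0.36, and 48 were negative. None of the 60 passed without FoxK1 KD replicate 4 or FoxK2 KD replicate 2, 3 or 4, while 5 fell without Control replicate 1. Against this direction, the G1 cyclin Ccnd1 was higher, at 658, 651, 657 and 686 CPM in the FoxK1 KD libraries and 514, 533, 518 and 550.4 CPM in the FoxK2 KD libraries (log2 difference 0.33 ± 0.08, adjusted p = 0.00949).

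In glucose uptake and glycolysis 3 of 30 tested genes fell and none rose, with a median of -0.17. The glucose transporter Slc2a1 was at 74.4, 56.4, 71.99 and 86.7 CPM in the FoxK1 KD libraries and 104, 101, 113 and 96.1 CPM in the FoxK2 KD libraries (log2 difference -0.51 ± 0.12, adjusted p = 0.00805). Gapdh, often taken as a reference gene, was lower by -0.29 ± 0.08 (adjusted p = 0.0242) and passed in only 3 of 8 fits that left out 1 library. The count of glycolysis genes was 6 without FoxK2 KD replicate 1 and 7 without Control replicate 1. Of 23 HIF targets, 1 passed, again Slc2a1, and without Control replicate 1 there were 4 lower and 1 higher. Of 35 glutathione and NRF2 target genes 2 fell (5.71%, background 1.89%), Gsta3 (-0.46 ± 0.09 (adjusted p = 0.00326)) and Gsta4 (-0.85 ± 0.25 (adjusted p = 0.047)), which have close paralogues. The count was 6 without FoxK2 KD replicate 1 or without Control replicate 1, which also gave 1 higher. Gsta4 passed in 1 of 8 such fits.

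Ribosomal protein and mitochondrial transcripts varied between libraries of the same group. The cytosolic ribosomal proteins took 1.35% to 1.57% of the reads in FoxK1 KD and 1.47% in FoxK2 KD replicate 1, but 1.77% to 1.803% in the other FoxK2 KD libraries. Of 79 tested members 3 were lower (3.80%, background 1.89%), Rplp2, Rpl23 and Rps9. Without FoxK2 KD replicate 1 there were 10, without Control replicate 1 there were 8, and without FoxK1 KD replicate 3 or FoxK2 KD replicate 2, 3 or 4 there was 1. Transcripts of the mitochondrial genome took 2.27% and 2.43% of reads in FoxK1 KD replicates 1 and 2, and 1.60% to 1.79% in the 6 other libraries. Of 11 tested members mt-Co2 passed, with low and overlapping values of 13.1, 14.9, 4.71 and 3.48 CPM in the FoxK1 KD libraries and 2.16, 1.18, 3.67 and 4.62 CPM in the FoxK2 KD libraries (log2 difference 1.56 ± 0.45, adjusted p = 0.0439). It lost its call without FoxK1 KD replicates 1 or 2 or FoxK2 KD replicates 1, 2 or 3. All 11 tested members had a positive difference, with a median of 0.39. At an adjusted p under 0.25, 8 of them were higher, where 7.96% of all genes were. After insulin 7 of the 11 were positive, with a median of 0.09. The list held no call with the replicate block or with only the 16 basal libraries, and 4 without Control replicate 1. It held 3 calls with the GC and length correction, 4 with only the 8 libraries compared, and 0 to 3 when 1 of the 8 was left out. Of the nuclear respiratory chain genes, 0 of 34 in complex I passed and 1 of 33 in complexes III to V, Atp5o, at -0.55 ± 0.15 (adjusted p = 0.025). It passed in 2 of 8 fits that left out 1 library. None of 25 citrate cycle genes passed, and none of 41 autophagy genes (1 without Control replicate 1), whose median was -0.01.

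**Figure D3:**
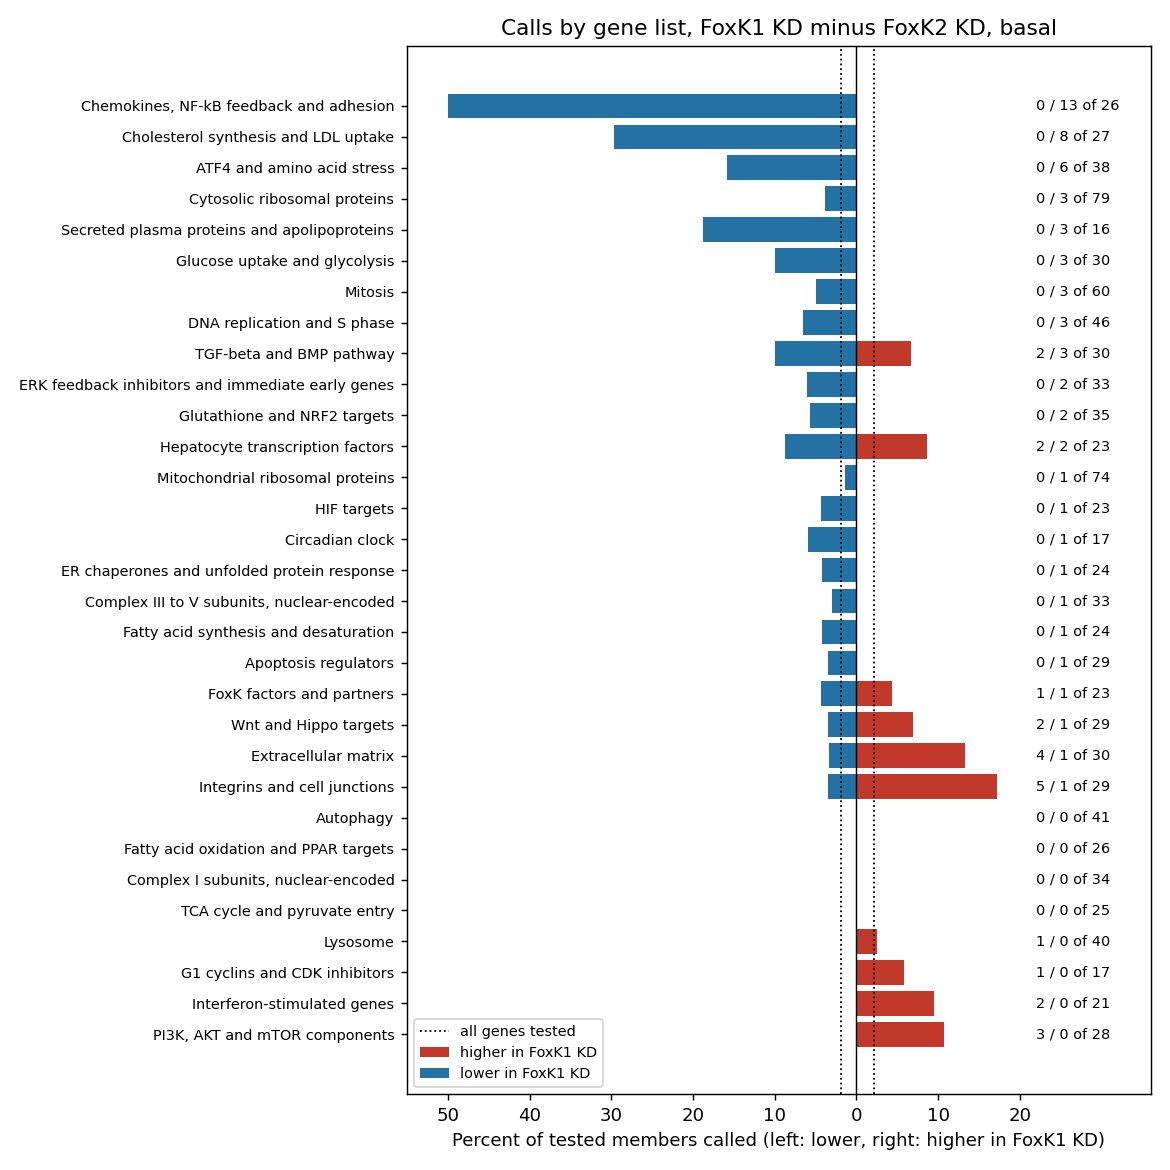
Share of the tested members of each list that passed (horizontal axis, percent), to the left where lower and to the right where higher in FoxK1 KD, with the counts higher / lower of tested members at the right. Lists with at least 15 tested members are drawn and the dotted lines mark all genes tested, 1.89% lower and 2.13% higher. The inflammatory list (13 of 26) and the cholesterol list (8 of 27) extend furthest to the left.

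Small numbers of insulin pathway genes told the knockdowns apart, where 2.13% of all genes tested were higher and 1.89% lower. None of the 4 FoxO genes passed: Foxo1 was at 27.6, 34.99, 39.5 and 33.2 CPM in the FoxK1 KD libraries and 31.2, 30.4, 31.3 and 32.97 CPM in the FoxK2 KD libraries (log2 difference 0.10 ± 0.12, adjusted p = 0.712), and Foxo3, the most abundant, at 273 to 298 CPM in FoxK1 KD and 287 to 309 CPM in FoxK2 KD (log2 difference -0.06 ± 0.06, adjusted p = 0.664). Foxo4 and Foxo6 were at -0.17 ± 0.12 (adjusted p = 0.478) and -0.22 ± 0.32 (adjusted p = 0.772). Of 9 tested insulin and IGF receptor and substrate genes 1 passed, the IGF-1 receptor Igf1r, at 174, 172, 172 and 189 CPM in the FoxK1 KD libraries and 156, 134, 159 and 135 CPM in the FoxK2 KD libraries (log2 difference 0.28 ± 0.08, adjusted p = 0.0441). It passed in only 2 of 8 fits that left out 1 library. Of 28 PI3K, AKT and mTOR components 3 were higher (10.7%) and none was lower. The libraries did not overlap for 7 of the 28, all higher in FoxK1 KD, against 5.69% of all genes tested. At an adjusted p under 0.25, 8 of the 28 were higher, where 7.96% of all genes were. The regulatory subunit Pik3r3 was at 40.1, 62.4, 52.5 and 46.02 CPM in the FoxK1 KD libraries and 30.3, 31.3, 32.2 and 32.1 CPM in the FoxK2 KD libraries (log2 difference 0.66 ± 0.12, adjusted p = 0.0012). Tsc2, an inhibitor of mTOR, differed by 0.33 ± 0.08 (adjusted p = 0.0171), and only 1 of the 3 passed without FoxK2 KD replicate 4. Of 13 fasting genes of the FoxO type 2 fell (15.4%) and 1 rose (7.69%). Depp1, a FoxO target tied to autophagy and peroxisomes, was lower at 9.50, 2.64, 7.29 and 7.49 CPM in the FoxK1 KD libraries and 14.5, 14.4, 15.6 and 13.8 CPM in the FoxK2 KD libraries (log2 difference -1.06 ± 0.25, adjusted p = 0.0113). The coactivator Ppargc1a was higher at 104 to 129 CPM in FoxK1 KD and 75.6 to 106 CPM in FoxK2 KD (log2 difference 0.39 ± 0.09, adjusted p = 0.00947), a call lost without FoxK2 KD replicate 3. Of 21 tested interferon-stimulated genes 2 rose, the neighbours Ifit3 (0.55 ± 0.12 (adjusted p = 0.007)) and Ifit3b (0.58 ± 0.12 (adjusted p = 0.00289)), near-identical copies between which reads may be split. Bhlhe40, of the circadian clock list, and Lipa, the lysosomal lipase, passed at -0.23 and 0.26 and held in only 1 of 8 and 1 of 8 fits that left out 1 library.

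The forkhead motif was searched in the same windows on both strands in any of 4 forms, namely GTAAACA, the form GTAAATA, then ATAAACA, and last the form ATAAATA. It was in 8.80% of windows of tested genes, in 10.4% of windows of the higher genes and in 7.94% of windows of the lower genes, so both shares lay near that of all genes tested. The windows of Dab2 (chr15:6386498-6386797, plus strand) and Il33 (chr19:29924863-29925162, plus strand) are shown because these were the higher and the lower gene of smallest p whose window held a match. Dab2 has 2 windows and only 1 held a match. The one shown is at a start inside the gene, which spans chr15:6299788-6440712. Il33 also has 2 windows, and 2 held a match. Capitals mark the match, which begins 61 bases before the start in Dab2 and 162 before it in Il33.
Dab2: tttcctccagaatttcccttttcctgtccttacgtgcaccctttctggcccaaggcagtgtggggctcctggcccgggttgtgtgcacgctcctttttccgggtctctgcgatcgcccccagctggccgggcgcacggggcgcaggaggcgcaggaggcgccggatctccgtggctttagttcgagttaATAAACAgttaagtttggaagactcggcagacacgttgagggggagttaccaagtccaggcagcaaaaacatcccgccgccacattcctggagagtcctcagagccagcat
Il33: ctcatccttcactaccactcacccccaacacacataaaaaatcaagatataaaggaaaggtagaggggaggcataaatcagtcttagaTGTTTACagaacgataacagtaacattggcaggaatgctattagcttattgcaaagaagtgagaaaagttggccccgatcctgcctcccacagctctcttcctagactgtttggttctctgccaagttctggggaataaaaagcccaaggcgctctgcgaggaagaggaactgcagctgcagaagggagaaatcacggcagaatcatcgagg

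Some genes had been singled out in the study for their response to the combined knockdown in these same libraries, so their counts are not independent evidence of direction. Of 6 such genes raised in DKD, Adgrg1, Mcam and Ccnd1 were higher in FoxK1 KD than in FoxK2 KD, while Sgk1 (0.25 ± 0.10 (adjusted p = 0.172)), Alpl (0.36 ± 0.12 (adjusted p = 0.091)) and Wdr45 (-0.07 ± 0.13 (adjusted p = 0.833)) did not pass. Of 6 lowered in DKD, Vcam1, Scd1, Tgoln1 and Aff4 were lower, and Scd2 and mt-Nd6 (0.26 ± 0.11 (adjusted p = 0.18)) did not pass. Tgoln1, a protein of the trans-Golgi network with a near-identical paralogue, was at 437, 427, 458 and 541 CPM in the FoxK1 KD libraries and 766, 771, 708 and 726 CPM in the FoxK2 KD libraries (log2 difference -0.67 ± 0.08, adjusted p = 6.11e-07). Aff4, a scaffold of the super elongation complex, was at 318 to 342 CPM in FoxK1 KD and 418 to 486 CPM in FoxK2 KD (log2 difference -0.40 ± 0.07, adjusted p = 0.000844). Apart from these libraries, the study reported that loss of FoxK1 from mouse liver lowered Vcam1, Aff4 and Tgoln1 mRNA. The same loss raised Mcam, Adgrg1 and Sgk1 mRNA. For Cdkn1b and Ccng2 the study reported FoxK1 at the promoter following insulin stimulation. Their basal RNA differences were -0.01 ± 0.10 (adjusted p = 0.966) and 0.06 ± 0.10 (adjusted p = 0.817). In the libraries after 6 h of insulin, a later time than that of the binding assay, both were negative. Their median there was -0.19 and neither passed.

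Each group was set beside Control to show on which side a difference lay. The 2 comparisons share the Control libraries, and each shares a knockdown group with the direct comparison, so their values are given only side by side. Against Control, 920 genes (8.09%) passed in FoxK1 KD and 43 (0.378%) in FoxK2 KD. Both counts depended on single libraries. Without Control replicate 1, the library that stood apart, they were 408 and 13. The count in FoxK1 KD was 501 without FoxK1 KD replicate 2. That in FoxK2 KD ranged from 5 to 28 without 1 FoxK2 KD library, was 98 and 128 without Control replicate 3 and 4, and was 83 in DESeq2. Vcam1 differed from Control by -1.04 ± 0.08 (adjusted p = 3.93e-11) in FoxK1 KD and by 0.03 ± 0.08 (adjusted p = 0.93) in FoxK2 KD. Thbs1 differed by 1.45 ± 0.11 (adjusted p = 8.22e-11) and 0.39 ± 0.12 (adjusted p = 0.16), Scd1 by -0.88 ± 0.08 (adjusted p = 1.08e-09) and -0.24 ± 0.08 (adjusted p = 0.171), and Dab2 by 0.96 ± 0.11 (adjusted p = 9.31e-07) and 0.15 ± 0.12 (adjusted p = 0.673). In these 4 genes the value in FoxK1 KD was the one that passed, with or without Control replicate 1.

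For other genes the larger distance from Control was in FoxK2 KD. C3 differed from Control by 0.18 ± 0.15 (adjusted p = 0.497) in FoxK1 KD and by 0.97 ± 0.15 (adjusted p = 0.000938) in FoxK2 KD, from 314 ± 72.5 CPM in Control, and was at 636 ± 74.4 CPM in DKD. Lcn2 differed by 0.20 ± 0.23 (adjusted p = 0.656) and 1.05 ± 0.22 (adjusted p = 0.0213), and stood at 20.6 ± 9.87 CPM in Control and 57.2 ± 9.11 CPM in DKD. Lamb3 differed by -0.12 ± 0.08 (adjusted p = 0.355) in FoxK1 KD and by -0.57 ± 0.08 (adjusted p = 0.000152) in FoxK2 KD. Foxa1 was on either side of Control, at 0.41 ± 0.12 (adjusted p = 0.0285) and -0.39 ± 0.13 (adjusted p = 0.191), as were Entpd5, at 0.43 ± 0.12 (adjusted p = 0.0289) and -0.44 ± 0.13 (adjusted p = 0.136), and Setd7, at 0.33 ± 0.09 (adjusted p = 0.0144) and -0.31 ± 0.09 (adjusted p = 0.117). The values in FoxK2 KD of these last 3 genes did not pass, and without Control replicate 1 Foxa1 in FoxK1 KD was no longer called (0.41 ± 0.13, adjusted p = 0.0603), while C3, Lcn2, Lamb3, Entpd5 and Setd7 kept their calls.

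**Figure D4:**
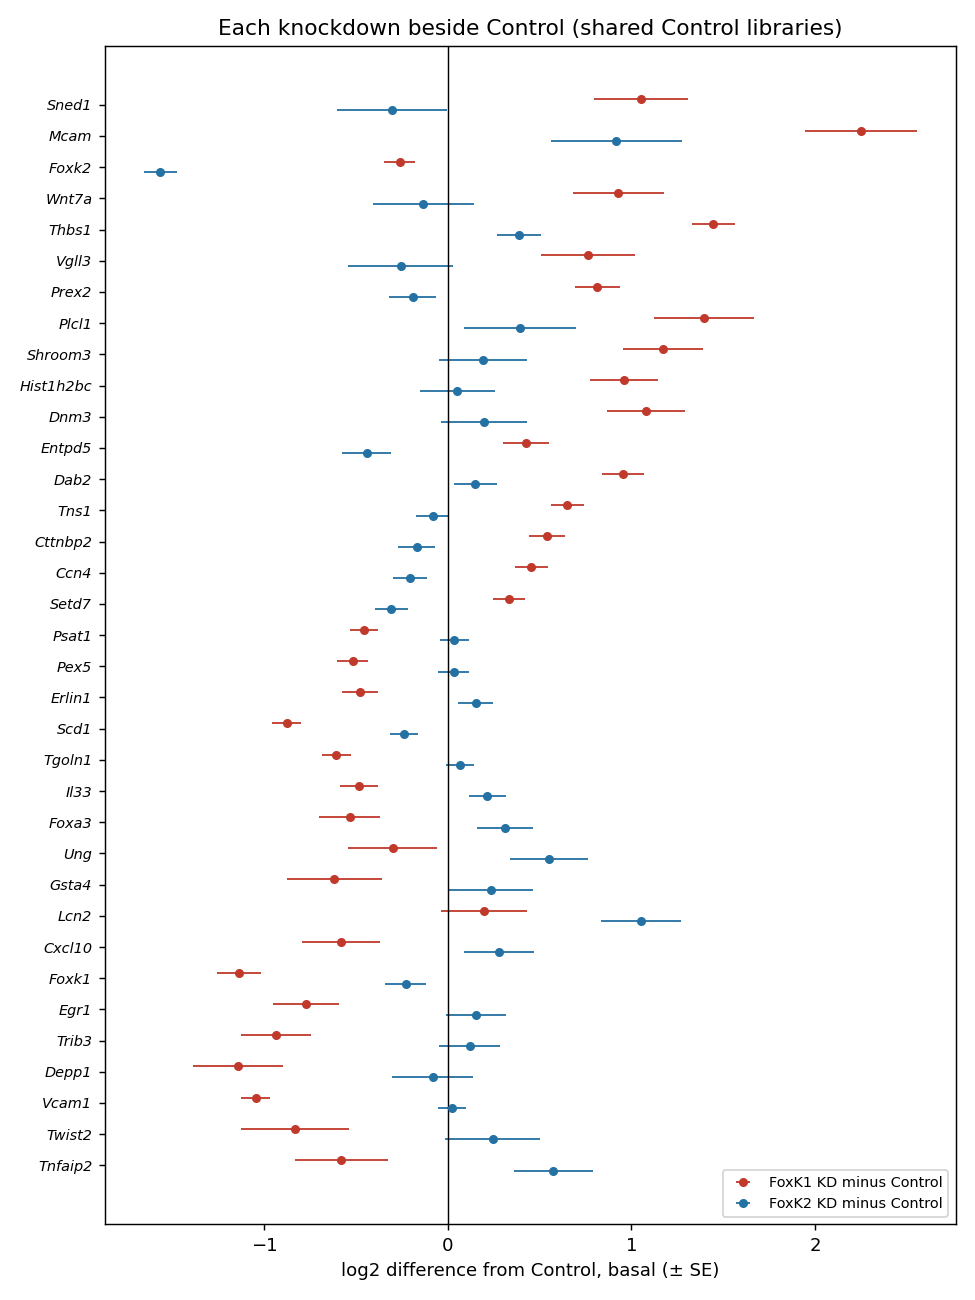
Log2 difference from Control at basal (horizontal axis) with its standard error for the genes with the greatest differences or the smallest p between the knockdowns, FoxK1 KD in red and FoxK2 KD in blue, ordered by the difference between them. Both series share the 4 Control libraries. Vcam1 is at -1.04 in FoxK1 KD and 0.03 in FoxK2 KD, and Lcn2 at 0.20 and 1.05.

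The same contrast after insulin came from other libraries in the same model, which shares its estimate of the spread, 4 of each knockdown treated with 100 nM insulin for 6 h, and 226 genes (1.99%) were higher and 187 (1.64%) lower, 3.63% in all. Of the 242 genes higher at basal, 229 (94.6%) had a positive difference after insulin, where 49.0% of all genes did, and 96 passed in the same direction, 39.7% of the basal and 42.5% of the insulin calls. Of the 215 genes lower at basal, 178 (82.8%) were negative after insulin, where 51.0% of all genes were, and 46 passed, 21.4% of the basal and 24.6% of the insulin calls. No gene passed in opposite directions. The insulin contrast gave 124 to 149 higher genes without any 1 FoxK1 KD library or FoxK2 KD replicate 2, and 87 to 106 lower genes without any 1 FoxK1 KD library or FoxK2 KD replicate 1 or 2. Without Control replicate 1 it gave 315 higher and 286 lower genes. The median log2 difference of the basal calls was 0.43 at basal and 0.32 after insulin among the higher, and -0.45 and -0.19 among the lower.

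Vcam1 stood at 123, 127, 122 and 124 CPM in the insulin-treated FoxK1 KD libraries and 187, 203, 208 and 220.2 CPM in those of FoxK2 KD (log2 difference -0.72 ± 0.08, adjusted p = 2.83e-07). Thbs1 stood at 66.1, 51.9, 69.9 and 73.1 CPM and 20.3, 21.5, 22.8 and 25.8 CPM (log2 difference 1.54 ± 0.12, adjusted p = 2.18e-10). Scd1 stood at 926, 986, 915 and 859.6 CPM and 1456, 1540.2, 1482 and 1555 CPM (log2 difference -0.71 ± 0.08, adjusted p = 1.79e-07). All 3 genes kept their direction, without overlap, in the insulin-treated libraries. Prex2 (1.01 ± 0.15 (adjusted p = 3.49e-05)), Tns1 (0.69 ± 0.10 (adjusted p = 1.21e-05)), Foxa1 (0.74 ± 0.14 (adjusted p = 0.00139)), Egr1 (-1.13 ± 0.25 (adjusted p = 0.00566)) and Tlr2 (-0.73 ± 0.15 (adjusted p = 0.00326)) passed as well. In the inflammatory list 5 of the 26 were lower after insulin, with a median of -0.34, in the cholesterol list 6 of 27, with all 27 negative, and in the ATF4 list 4 of 38.

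Other genes did not repeat. Sned1 stood at 6.28, 2.61, 4.23 and 3.71 CPM in FoxK1 KD and 3.75, 4.40, 4.85 and 3.46 CPM in FoxK2 KD after insulin (log2 difference 0.04 ± 0.28, adjusted p = 0.968), and Ttr was at -0.12 ± 0.22 (adjusted p = 0.858). For ribosomal proteins 0 of 79 passed after insulin and the median was 0.02, and mt-Co2 changed sign, to -0.72 ± 0.49 (adjusted p = 0.509). The difference for Igf1r was larger than at basal, at 125, 131, 138 and 137 CPM and 77.2, 68.2, 84.03 and 79.7 CPM (log2 difference 0.79 ± 0.09, adjusted p = 2.51e-07), and that for Ifit3 was 1.40 ± 0.20 (adjusted p = 2.51e-05). The change of the contrast with insulin was itself tested for each gene in edgeR. No gene passed at an adjusted p under 0.05 or 0.25, with 917 at an unadjusted p under 0.05 and a smallest adjusted p of 0.443, and DESeq2 and limma-voom also gave 0 at 0.05. For Igf1r the change was 0.51 ± 0.12 (adjusted p = 0.443), for Sned1 -1.32 ± 0.39 (adjusted p = 0.443) and for Vcam1 0.35 ± 0.11 (adjusted p = 0.443).

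**Figure D5:**
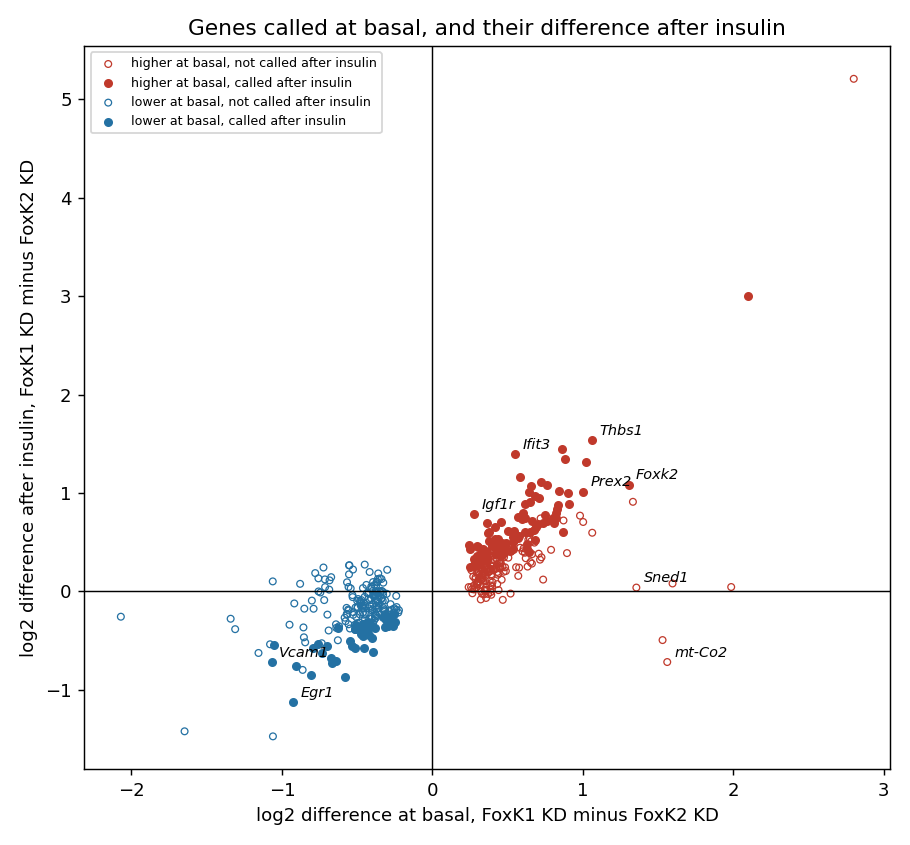
Log2 difference of FoxK1 KD over FoxK2 KD at basal (horizontal axis) against that after insulin (vertical axis) for the 457 genes that passed at basal, red where higher and blue where lower at basal, filled where the gene also passed after insulin. The 2 axes come from separate libraries fitted in 1 model. Of the red points 229 of 242 lie above 0 and of the blue points 178 of 215 lie below 0.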

How the data were processed

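Poly(A) RNA libraries of AML12 cells were sequenced, and per the labels and the study's methods the authors deposited 1 table per library of raw read counts per gene, which are not normalized. The submitters' processing notes name CASAVA 1.8, STAR 2.4.2a, featureCounts and the build GRCm38.p4, without a role for each, and the strand setting of the counting is not given in the sources used here. Without it, reads of overlapping and antisense genes cannot be told apart. Replicates were not pooled. The labels do not say whether replicates came from separate cultures, so that p-values measure the spread between these libraries, which may be technical.

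Gene symbols, types and coordinates were taken from GENCODE M21 (GRCm38), in which 48435 of the 49089 gene identifiers were found. Genes were filtered with filterByExpr, which left 11368, and scaled with TMM. All 30 libraries were fitted in 1 edgeR (version 4.0.16, R 4.3.3) quasi-likelihood model of 8 groups, and p-values were adjusted by the Benjamini-Hochberg method over the 11368 genes. CPM values use TMM-adjusted library sizes. Members, gene lists and tests were chosen with earlier results of these data known. The kappaB, sterol and CARE motifs were added after the list results were seen. No list was tested as a set, and a list is described by its counts and median beside all genes. Genes were named by a rule: Foxk1 and Foxk2, the 12 greatest differences and the 8 smallest p in each direction among protein-coding genes that passed without overlap and with a mean log2-CPM of at least 2, up to 4 members that passed in each list, and all members of the FoxO and study-chosen lists. Other members that passed are named with their list, the other exceptions are stated, and some genes that met the rule or passed are not reported here.

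The alternatives were DESeq2 1.42.0, limma-voom (limma 3.58.1), other filters on low counts, models of only the 8 or the 16 basal libraries, the replicate number as a block, a correction for GC content and length, the study's threshold of 0.25, a minimum fold of 1.5, and leaving out each library of the contrast. Fits without Control replicate 1, and all other fits of the Control comparisons, were chosen after the data were seen. Same-numbered libraries of the 2 groups did not deviate together, so the main model has no block. No pair of libraries agreed within sampling noise.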

Additional observations from a re-analysis of the deposited data

Results flagged for a closer look

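In groups of 4 basal libraries, the named genes were searched for a library standing apart from the other 3 by Dixon's criterion, which compares the gap to the nearest other library with the group's range. Of 202 groups of values 11 (5.45%) met it, and chance alone meets it in about 1 group in 20. They were spread over 6 of the 8 libraries. Entpd5 was lowest in FoxK2 KD replicate 1, at 14.5 CPM beside 17.4 to 17.8 CPM in the other libraries of that group. Egr1 was highest in FoxK2 KD replicate 4, at 25.3 CPM beside 23.5 to 23.8 CPM in the other libraries of that group. Foxa3 was highest in FoxK2 KD replicate 2, at 32.7 CPM beside 22.8 to 23.8 CPM in the other libraries of that group. Tns1 was highest in FoxK2 KD replicate 1, at 186 CPM beside 162 to 165 CPM in the other libraries of that group. Setd7 was lowest in FoxK1 KD replicate 1, at 73.1 CPM beside 80.9 to 81.3 CPM in the other libraries of that group. Il33 was lowest in FoxK1 KD replicate 2, at 49.5 CPM beside 60.6 to 62.3 CPM in the other libraries of that group. Igf1r was highest in FoxK1 KD replicate 4, at 189 CPM beside 172 to 174 CPM in the other libraries of that group. Mvd was lowest in FoxK1 KD replicate 2, at 93.1 CPM beside 109 to 112 CPM in the other libraries of that group. Sparc was highest in FoxK1 KD replicate 2, at 278 CPM beside 249 to 253 CPM in the other libraries of that group. Aff4 was highest in FoxK2 KD replicate 1, at 486 CPM beside 418 to 421 CPM in the other libraries of that group. mt-Nd6 was highest in FoxK1 KD replicate 1, at 323 CPM beside 256 to 263 CPM in the other libraries of that group. For none of the 10 called genes among them did leaving out any 1 library reverse the direction, and Igf1r lost its call in 6 of 8 such fits, while the others that passed kept theirs in all.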

How the results depend on the processing

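Limits first: with 4 libraries a group and 3070960 to 4668774 counts each, the median standard error of a log2 difference was 0.13, so small differences could not be detected at this depth. The direct comparison gave 242 higher and 215 lower genes. Both directions stayed within 1.5 times of these counts with DESeq2 (278 and 236), limma-voom (251 and 224), at least 10 counts in every library (254 and 219), at least 1 count in any library (254 and 309) and a correction for GC content and length (265 and 245). The model of only the 8 libraries gave 329 higher and 328 lower, and that of the 16 basal libraries 151 and 127; the cause was not tested. At an adjusted p under 0.25 there were 905 and 971 genes, and 72 and 49 with a fold above 1.5. Fits that left out 1 of the 8 libraries, and so had fewer samples, gave 109 to 295 higher and 86 to 270 lower genes. Without Control replicate 1, a fit added after the data were seen, there were 391 and 391 at basal and 315 and 286 after insulin. Against Control the 920 genes in FoxK1 KD became 408 to 1244 and the 43 in FoxK2 KD became 5 to 128 when 1 library was left out, and 83 in DESeq2 for FoxK2 KD. After insulin the 226 higher and 187 lower genes became 736 and 699 at 0.25, 105 and 33 with a fold above 1.5, and 124 to 179 and 87 to 141 when 1 library was left out.

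Same-numbered libraries of the 2 groups had correlations of deviation of -0.12, -0.08, 0.08 and -0.17, so the replicate numbers did not pair the libraries. With the replicate number as a block the counts were 207 higher and 186 lower at basal, 207 and 154 after insulin, and, with the GC and length correction added, 242 and 218 at basal. Not every library correlated best with its own number.

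Of the 90 named genes that passed, 51 passed in each of the 17 other fits listed with the methods that tested them. The fit with at least 10 counts in every library tested only 80 of the 90, and all 80 passed in it. All 90 passed without Control replicate 1, and none reversed. Directions turned for 3 genes that did not pass in the main comparison, all near 0: Wdr45, at 0.011 with the GC and length correction and 0.012 with the block added, Scd2, from -0.057 to 0.0012 when 1 library was left out, and Cdkn1b, from -0.088 to 0.024 when 1 library was left out. Over all genes the log2 difference had a Spearman correlation of 0.26 with transcript length and -0.15 with GC content, a description across 11346 genes, which are not independent.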

Other observations

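Several gene groups held few or no genes that passed between FoxK1 KD and FoxK2 KD at basal. Of 10 tested bile acid and xenobiotic genes and of 10 snoRNA host transcripts none passed, and of 40 lysosome genes 1 passed, Lipa. Of 74 mitochondrial ribosomal protein genes 1 passed, Mrpl17, which was lower by 0.42 on the log2 scale, at an adjusted p of 0.0469 in edgeR, and was at -0.02 after insulin, and 3 passed without Control replicate 1. Of the 2 IGF ligand or binding protein genes that were tested none passed.

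Low-count genes with large folds were left out of the naming rule and were picked here after their values were seen. Abhd1 had 8 reads over the 4 FoxK1 KD libraries and 38 over the 4 FoxK2 KD libraries. Abca4, a retinal lipid transporter, had 10 and 35, and Mrc1, the mannose receptor of macrophages and liver endothelium, had 18 and 49. The macrophage colony-stimulating factor receptor gene Csf1r, from the list of macrophage markers, ran the other way and passed. It was at 16.1 to 21.4 CPM in FoxK1 KD and 7.72 to 11.7 CPM in FoxK2 KD, while Adgre1 was at 0 in all 8 libraries.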
